A study of Mus musculus with 8 samples.

Results

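The unfolded protein response and the integrated stress response were followed here through 10 genes: the transcription factors Atf4, Ddit3 and Xbp1, the targets Trib3, Asns and Chac1, the endoplasmic reticulum (ER) chaperones and secreted proteins Hspa5, Hsp90b1 and Manf, and the ER membrane protein Herpud1. They were chosen by name, from textbook membership of the pathways, out of 15156 genes with a measurable probe. Earlier results of these data were known when the choice was made. Each gene was read from its brightest probe among those annotated to a RefSeq transcript of the gene and well above the local background on 4 or more of 8 arrays. All 10 genes had such a probe, 11 probes in all, with 1 probe for each gene except Atf4, which had 2. The probes used were well above background on all 8 arrays and were saturated on none.

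The mice were adult males of the C57BL\6 background. In the MI group (n = 4) the anterior interventricular artery was permanently tied, and in the sham group (n = 4) the same operation was done without ligation. RNA was taken from the ventricles 24 h after surgery and hybridized to 1 single-colour Agilent mouse SurePrint G3 array per mouse, each mouse being 1 biological replicate. By the study's methods, mice of both groups had a PET exam after surgery, for which they were given Acipimox and the tracer FDG under isoflurane. The labels name no allele. The ventricles were extracted whole, so that infarcted and uninfarcted muscle of an MI mouse were measured together, and fewer cells of a type cannot be told apart from less RNA per cell.

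Proteins that fail to fold in the ER set off the unfolded protein response through a group of membrane sensors. IRE1 splices the Xbp1 messenger RNA, ATF6 is cut to release a transcription factor, and PERK phosphorylates the translation factor eIF2alpha. Phosphorylation of eIF2alpha is also the hub of the integrated stress response, where other kinases answer to lack of amino acids, heme deficiency or viral RNA; it lowers general protein synthesis while translation of the Atf4 messenger RNA rises. ATF4, together with CHOP (the product of Ddit3), switches on genes of amino acid supply, redox balance and cell death, whereas cleaved ATF6 and spliced XBP1 mainly switch on chaperones and the machinery of ER-associated degradation. In the heart these pathways are known from ischemia and pressure overload.

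The factors above act through DNA elements, and here ATF4 and CHOP are called 1 arm and ATF6 and XBP1 the other. The promoters of 9 of the 10 genes were found in the RefSeq table of build GRCm38.p6 (Manf was not in it). A window of 250 bases before to 50 bases after the start site was searched on both strands for letter matches. The C/EBP-ATF response element (CARE, TGATGNAAN) read by ATF4 and CHOP was matched in 4 genes, Asns, Chac1, Herpud1 and Trib3, and in 3.95% of 32851 promoters of the table. The ER stress element read by ATF6 (ERSE, CCAAT and CCACG with 9 bases between) was matched once in Hspa5 and at 2 places in Hsp90b1, against 0.119% of all promoters. The shorter ERSE-II (ATTGG and CCACG with 1 base between) was matched in Herpud1, against 0.0365% of all promoters. The UPRE (TGACGTGG) and CRE (TGACGTCA) elements were not matched in these windows of the 9 genes, and are present in 0.676% and 1.79% of promoters. No matches of different elements overlapped, and a match describes letters only.

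The CARE matches of the 4 genes that hold one, the ERSE-II of Herpud1 and an ERSE of each ER chaperone are shown to let the elements of both arms be compared; they are printed 5′ to 3′ on the strand of the gene, with the matched element in capitals and 10 bases on either side. A CARE on the opposite strand reads from its end, so that it appears as its reverse complement.
Asns, CARE, chr6:7693214-7693242, minus strand: cccagccacaTGATGAAACttcccgcacg
Trib3, CARE on the opposite strand, chr2:152344029-152344057, minus strand: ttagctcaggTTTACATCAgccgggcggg
Chac1, CARE on the opposite strand, chr2:119351038-119351066, plus strand: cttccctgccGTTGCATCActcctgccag
Herpud1, CARE on the opposite strand, chr8:94386306-94386334, plus strand: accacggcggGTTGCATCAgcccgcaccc
Herpud1, ERSE-II, chr8:94386367-94386397, plus strand: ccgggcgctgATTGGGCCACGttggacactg
Hspa5, ERSE, chr2:34772015-34772053, plus strand: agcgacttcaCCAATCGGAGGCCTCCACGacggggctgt
Hsp90b1, ERSE, chr10:86705628-86705666, minus strand: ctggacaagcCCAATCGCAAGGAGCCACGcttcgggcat
The ERSE match of Hsp90b1 nearer to its start site is not printed. The Asns element ran from -23 to -15 relative to the start site and the Chac1 element from -194 to -186. The Trib3 match lay just after the start site, from 14 to 22. In Herpud1 the CARE ran from -113 to -105 and the ERSE-II from -52 to -42, which made it the gene among the 9 with a match to elements of both arms. Matched elements did not sort the genes by direction, as the values below show: of the 4 genes with a CARE, Asns and Trib3 were higher in MI mice, Herpud1 was lower and Chac1 did not pass the test.

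**Figure D1:**
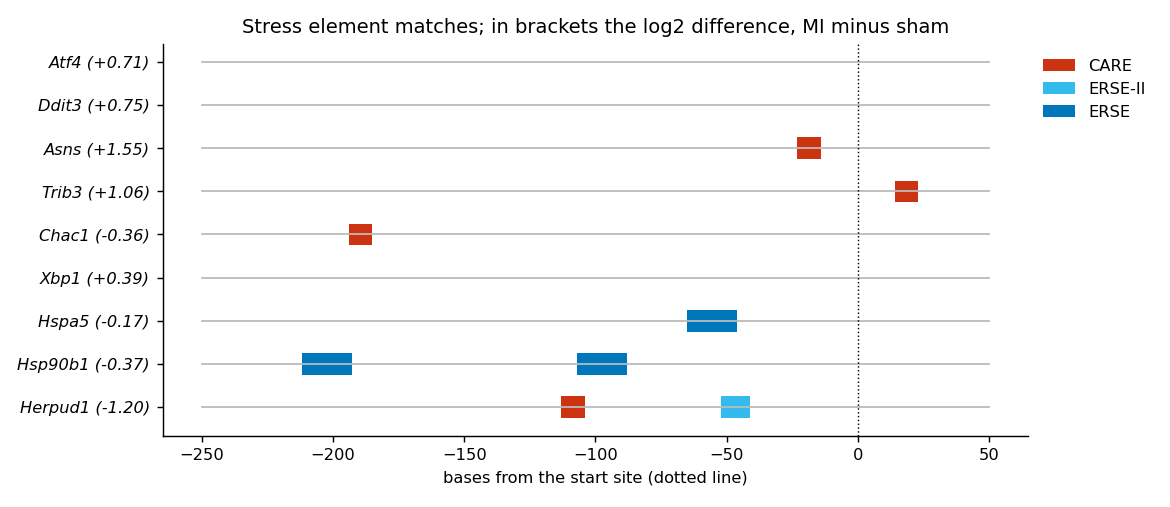
Positions of letter matches to 3 stress elements in the promoters of 9 genes, in bases from the start site (dotted line, 0) along the x axis, over the 250 bases before and 50 after; bars span the matched letters and grey lines the window searched. The log2 difference MI minus sham stands in brackets beside each gene: the 4 genes with a CARE ranged from -1.20 (Herpud1) to 1.55 (Asns).

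Signals are given as log2 of the background-subtracted fluorescence after each array was shifted by the mean of its spike-in controls, and a difference is MI minus sham on that scale, so that 1 is a 2-fold difference. Differences were tested with limma over 34038 probes, with p-values adjusted by Benjamini-Hochberg over all of them and called below 0.05. The exact permutation test given for single genes is two-sided over the 70 ways of dividing the mice, and 0.0286 is the smallest p it can give. Of the 10 genes, 2 were called higher in MI mice, 1 was called lower and 7 did not pass the test, against 5.46% of all probes called in either direction (4.73% higher and 0.729% lower). The 3 called genes were also over 2-fold apart, a rule met by 4.47% of all probes (3.87% higher and 0.596% lower). The groups did not overlap for 5 of the 10 genes, 4 of them higher and 1 lower in MI mice, against 10.4% of 33865 probes with a value on every array (7.58% with all MI mice above all sham mice and 2.77% below). Among 15156 genes, each read from its brightest probe, 5.69% were called higher and 0.851% lower. The median log2 difference was 0.11 for the 10 genes, 0.11 for all probes tested and 0.071 for the brightest probes of these 15156 genes.

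**Figure D2:**
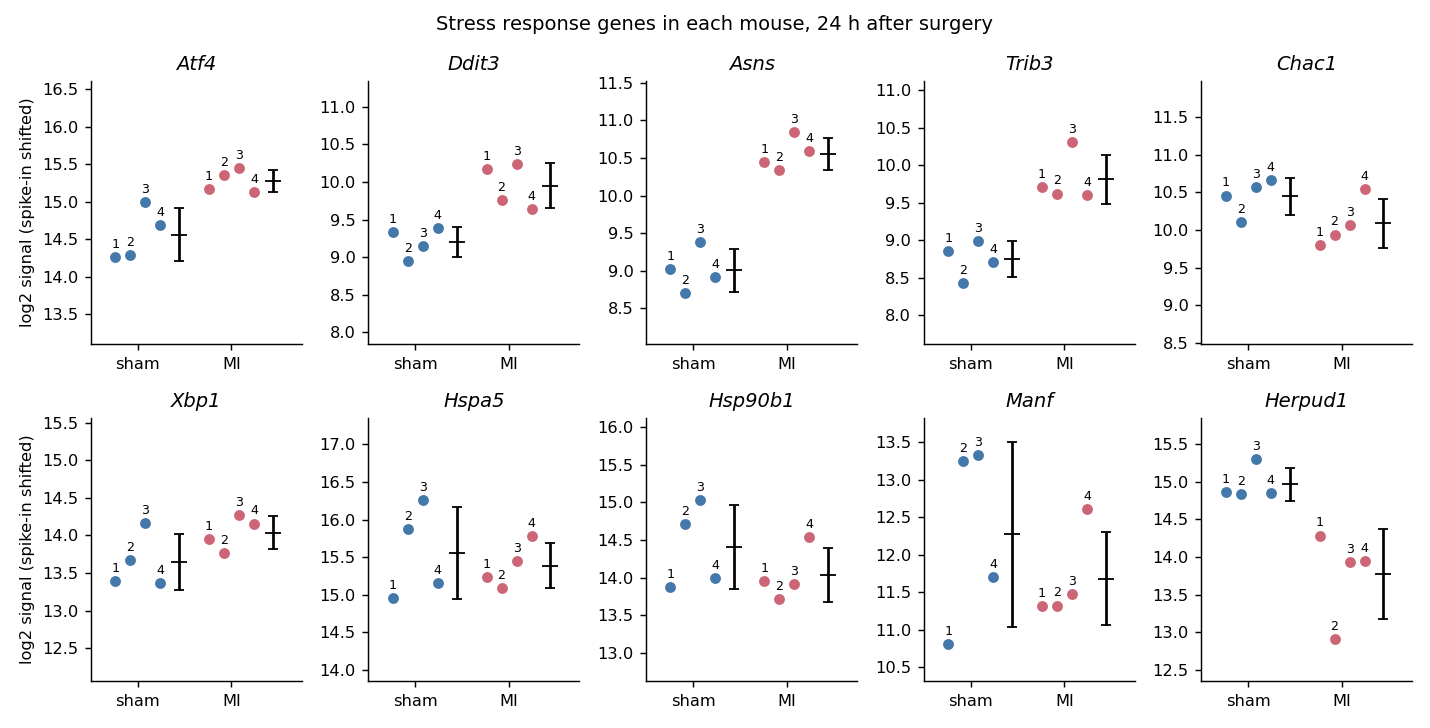
Log2 signal of the 10 genes in each of 4 sham mice (blue) and 4 MI mice (red), with the replicate number above each point and the mean ± SD at the right of each group; every y axis spans the same number of log2 units. Asns, Trib3, Ddit3 and Atf4 lie higher in every MI mouse than in any sham mouse and Herpud1 lies lower, whereas sham 2 and sham 3 carry the highest values of Hspa5, Hsp90b1 and Manf.

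Asns, which encodes asparagine synthetase and is a standard target of ATF4 in amino acid shortage, had the largest difference of the 10 genes. In sham mice 1 to 4 its log2 signal was 9.02, 8.71, 9.38 and 8.91, and in MI mice 1 to 4 it was 10.44, 10.33, 10.84 and 10.59. The lowest MI mouse was well above the highest sham mouse. The means were 9.01 ± 0.28 (SD, n = 4) and 10.55 ± 0.22 (SD, n = 4), a 2.92-fold higher signal in MI mice (log2 difference 1.55, SE 0.23, 95% interval 1.05 to 2.04, limma adjusted p = 0.00046). Within the rows of arrays on the slide, each holding 2 mice of each group, the difference was 1.53 in the first row and 1.57 in the other. The call held in all 20 other settings tried, with differences from 1.24 to 1.67. Of these settings, 1 took the mean over the probes of a gene, which changes nothing for Asns with its 1 probe.

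Trib3, a pseudokinase that binds ATF4 and CHOP and restrains them, was the other gene called higher. Sham mice 1 to 4 gave log2 signals of 8.86, 8.43, 8.99 and 8.72 and MI mice 1 to 4 gave 9.71, 9.62, 10.30 and 9.60. All MI mice lay above all sham mice, and MI mouse 3 stood above the other MI mice, which were close together. The means were 8.75 ± 0.24 and 9.81 ± 0.33 (SD, n = 4 each), a 2.08-fold higher signal in MI mice (log2 difference 1.06, SE 0.24, 95% interval 0.55 to 1.57, limma adjusted p = 0.0138). Without MI mouse 3 the difference was 0.89 and was no longer called (limma adjusted p = 0.0586), nor was it when probes of any brightness were tested (limma adjusted p = 0.0595).

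The transcription factors upstream of these targets gave positive differences that did not pass the test. Atf4, the central activator of the integrated stress response, gave 14.27, 14.29, 15.00 and 14.69 in sham mice 1 to 4 and 15.17, 15.36, 15.44 and 15.13 in MI mice 1 to 4. Every MI mouse lay above every sham mouse, but sham mouse 3 came close to the lowest of them. This gave a log2 difference of 0.71 (SE 0.24, 95% interval 0.21 to 1.22, limma adjusted p = 0.103, exact permutation p = 0.0286). A dimmer Atf4 probe annotated to the same transcript rose from a mean of 8.79 to 9.96, a log2 difference of 1.17 (SE 0.24, limma adjusted p = 0.00765), so that the probes of this gene agree on the direction and disagree on the call. The mean of both probes gave 0.94 with an adjusted p of 0.0273 in limma. ATF4 is controlled largely at translation, which an array of messenger RNA does not measure.

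Ddit3, the gene of the pro-apoptotic factor CHOP, is itself induced by ATF4. It gave 9.33, 8.95, 9.15 and 9.39 in sham mice 1 to 4 and 10.18, 9.76, 10.23 and 9.64 in MI mice 1 to 4 on the log2 signal scale. The groups did not overlap, with MI mouse 4 nearest to the sham mice. Its log2 difference was 0.75 (SE 0.23, 95% interval 0.25 to 1.24, limma adjusted p = 0.0793, exact permutation p = 0.0286). The call depended on the processing: Ddit3 passed in 7 of 20 other settings, among them the 75th percentile scaling (0.62, limma adjusted p = 0.027) and the normalized values of the authors (0.73, limma adjusted p = 0.0356). Atf4 passed in 5 of 20.

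Chac1, which encodes an enzyme that degrades glutathione and is a target of ATF4 and CHOP, gave values in the opposite direction. Log2 signals were 10.46, 10.10, 10.56 and 10.66 in sham mice 1 to 4 and 9.80, 9.94, 10.06 and 10.55 in MI mice 1 to 4. MI mice 1, 2 and 3 lay below all sham mice while MI mouse 4 lay among them, so that the groups overlapped. The difference was -0.36 on the log2 scale (SE 0.24, 95% interval -0.87 to 0.15, limma adjusted p = 0.508).

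**Figure D3:**
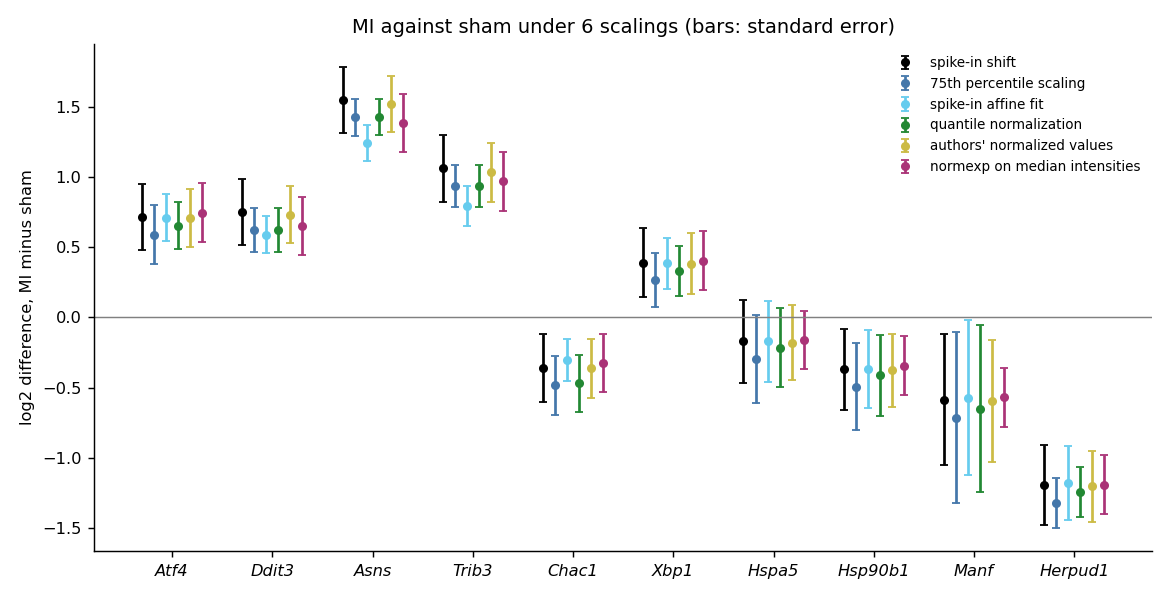
Log2 difference MI minus sham (y axis) of the 10 genes under 6 ways of scaling the arrays, with the SE of the limma fit as bars. The horizontal line marks no difference. Under normexp the SE is 0.21 for each of the 10 genes, so that those bars do not show a gene's own spread between mice. Under the 6 scalings each gene keeps its sign, with Asns highest and Herpud1 lowest.

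Herpud1, an ER membrane protein that helps assemble the ER-associated degradation complex, was the only one of the 10 genes called lower in MI mice. The log2 signals were 14.86, 14.84, 15.30 and 14.86 in sham mice 1 to 4 and 14.29, 12.91, 13.94 and 13.95 in MI mice 1 to 4. Sham mice 1, 2 and 4 were almost equal with sham mouse 3 above them, and the MI values were spread more widely, with MI mouse 2 lowest. The groups did not overlap: the means were 14.96 ± 0.22 and 13.77 ± 0.60 (SD, n = 4 each), a 2.29-fold lower signal in MI mice (log2 difference -1.20, SE 0.28, 95% interval -1.80 to -0.59, limma adjusted p = 0.0178). The difference was -1.26 and -1.14 within the rows of arrays. Without sham mouse 3 it was -1.08 and no longer called (limma adjusted p = 0.0606). Nor was it called when probes of any brightness were tested (limma adjusted p = 0.094), and over the 20 other settings it ranged from -1.37 to -0.91.

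Hspa5 (BiP or GRP78), the most used reporter of the unfolded protein response and the chaperone that holds its sensors inactive, showed no difference that could be told from the spread between mice. Log2 signals stood at 14.95, 15.87, 16.26 and 15.16 in sham mice 1 to 4 and 15.23, 15.09, 15.45 and 15.78 in MI mice 1 to 4. The MI values lay inside the sham range. The log2 difference was -0.17 (SE 0.29, 95% interval -0.79 to 0.45, limma adjusted p = 0.842), an interval that does not reach a 2-fold difference either way, and without sham mouse 3 the sign turned (0.061, limma adjusted p = 0.952).

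Hsp90b1 (GRP94), the ER member of the HSP90 family, followed Hspa5 from mouse to mouse. It measured 13.88, 14.71, 15.03 and 13.99 in sham mice 1 to 4 and 13.95, 13.72, 13.91 and 14.54 in MI mice 1 to 4 in log2 signal. The groups overlapped, with 1 MI mouse below all sham mice. The log2 difference was -0.37 (SE 0.29, 95% interval -0.98 to 0.24, limma adjusted p = 0.586), and -0.16 without sham mouse 3.

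Manf, a protein of the ER that is secreted when calcium or folding is disturbed there and is known as a protective factor in the ischemic heart, varied most of the 10 genes among mice of a group. Its log2 signal was 10.81, 13.24, 13.33 and 11.70 in sham mice 1 to 4 and 11.32, 11.32, 11.48 and 12.60 in MI mice 1 to 4. The sham mice alone spanned 2.52 log2 units, more than the difference between the group means. The log2 difference was -0.59 (SE 0.47, 95% interval -1.58 to 0.40, limma adjusted p = 0.593), and it ranged from -0.24 without sham mouse 3 to -1.07 without sham mouse 1. The SD within groups was 0.97 for Manf, higher than in 98.98% of the 15156 genes, while it was 0.25 for Asns against a median of 0.34 over all genes.

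The 3 chaperone genes shared an order of mice that the groups do not give. Sham mice 3 and 2 had the highest and next highest signal of Hspa5, Hsp90b1 and Manf, and MI mouse 4 the highest of the MI group. Among other genes, those whose signal was most like each of them over the 8 mice were Creld2 (Pearson r = 0.977) and Pdia6 (0.969) for Hspa5, Creld2 (0.990) and Pdia3 (0.971) for Hsp90b1, and Sdf2l1 (0.984) and Pdia4 (0.974) for Manf, each the nearest 2 of 15155 genes and all of them on the list of ER chaperones and foldases. These correlations describe 8 mice that share their arrays, with no p. Sdf2l1, for example, gave 8.94, 11.33, 11.20 and 9.28 in sham mice 1 to 4 and 9.22, 9.24, 9.31 and 10.68 in MI mice 1 to 4. Of 24 genes of that list, 19 had their highest sham value in sham mouse 3 and 17 their highest MI value in MI mouse 4, against 7538 and 3261 of 15156 genes. Sham mouse 3 was thus the highest sham mouse for many genes outside the list too, and the part of the array in this pattern was not tested.

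**Figure D4:**
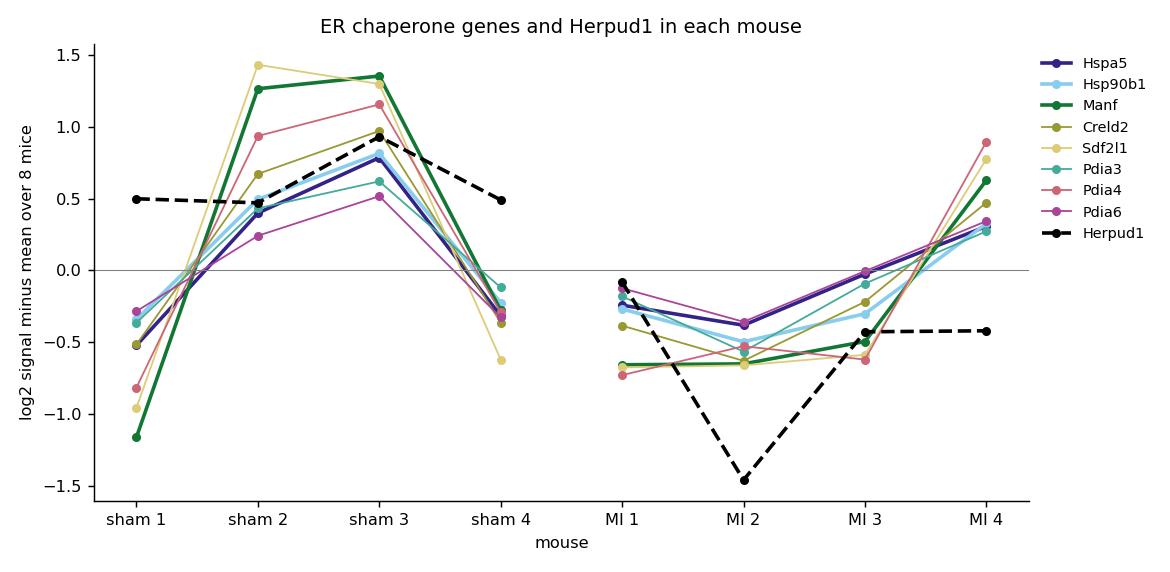
Log2 signal minus the mean over the 8 mice (y axis) of Hspa5, Hsp90b1, Manf and 5 chaperone or foldase genes with a like pattern, with Herpud1 (dashed), in each mouse; points are single mice and lines join the points of a gene within a group for the eye. The chaperone genes shown are raised in sham 2, sham 3 and MI 4, while Herpud1 is higher in all 4 sham mice than in any MI mouse. The 5 further genes were picked for their likeness over these mice. Over the 24 genes of the chaperone list the median was 0.049 in sham 2, 0.47 in sham 3 and 0.31 in MI 4.

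Xbp1, whose spliced form is the transcription factor of the IRE1 arm, was read by 1 probe, and the position of the probe relative to the spliced intron is not given in the sources used here. Its log2 signal was 13.39, 13.67, 14.16 and 13.36 in sham mice 1 to 4 and 13.96, 13.77, 14.27 and 14.16 in MI mice 1 to 4. The groups overlapped, since sham mouse 3 reached the upper MI values. The log2 difference was 0.39 (SE 0.25, 95% interval -0.13 to 0.91, limma adjusted p = 0.47), so that a rise of close to 2-fold and no difference are both within the interval.

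For the remaining genes the nearest patterns belonged to other lists of genes or to none. Asns was most like Mthfd1l (r = 0.998), a mitochondrial enzyme of one-carbon metabolism, and Dbn1 (0.997), which encodes the actin-binding protein drebrin. Trib3 was most like Tgfb2 (0.990) and Igfbp3 (0.988). Atf4 was most like Nts (0.982) and Adamts1 (0.980), Ddit3 like Mt2 (0.988), a metallothionein, and Map3k8 (0.984). Herpud1 was most like Nqo2 (0.993) and Aspa (0.992), Xbp1 like Hspb3 (0.974) and Scgb2b20 (0.972), and Chac1 like Nxpe4 (0.948). A gene that differs between the groups is like other genes that differ in the same direction, since the 8 mice include both groups.

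The wider pathways were described with 112 further genes in 7 lists, of which 108 had a measurable probe. Of these, 9 were called higher and 1 lower in MI mice, and 13 had groups that did not overlap. These are 8.33%, 0.926% and 12.04% of the 108 genes, against 4.73%, 0.729% and 10.4% of all probes, so that the share without overlap was near the background. Among 15156 genes, each read from its brightest probe, 5.69% were called higher and 0.851% lower. The median log2 difference was 0.20, against 0.11 for all probes and 0.071 for the brightest probes of these genes. In the counts below every list is read from the same fit over all probes, and its median is given beside that overall median, which itself moved to -0.014 when arrays were scaled to their 75th percentile.

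None of 10 genes of sensors and processing proteases was called by limma in either direction (median log2 difference 0.31); 2 had an unadjusted p below 0.05, both higher, and significance analysis of microarrays (SAM) called 1. Eif2ak3, which encodes PERK, gave a difference of 0.20 (SE 0.26, limma adjusted p = 0.777), Ern1, which encodes IRE1, gave 0.52 (SE 0.26, limma adjusted p = 0.331) and Atf6 gave -0.036 (SE 0.27, limma adjusted p = 0.971). These 3 were picked as the classical sensors after their values were seen.

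Of 8 genes for kinases and phosphatase subunits acting on eIF2alpha, 1 was called higher and none lower (median 0.19). It was Ppp1r15b, the constitutive subunit that directs dephosphorylation of eIF2alpha, at 5.96, 5.21, 6.15 and 6.07 in sham mice 1 to 4 and 7.38, 7.13, 7.79 and 7.07 in MI mice 1 to 4. All MI mice were above all sham mice (log2 difference 1.49, SE 0.26, limma adjusted p = 0.00195).

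Of 16 measured transcription factors and effectors of the integrated stress response, 2 were called higher and none lower (median 0.39). Gdf15, a secreted stress cytokine, gave 8.72, 9.88, 8.92 and 9.70 in sham mice 1 to 4 and 13.32, 13.23, 12.77 and 12.75 in MI mice 1 to 4. The groups were separated by more than the spread of either, and the signal was 13.1-fold higher in MI mice (log2 difference 3.71, SE 0.28, limma adjusted p = 5.9e-07). Pmaip1, which encodes the pro-apoptotic protein NOXA, was 3.26-fold higher (log2 difference 1.70, SE 0.25, limma adjusted p = 0.000282), with MI mouse 2 lowest of its group. Fgf21 did not enter the fit, being well above background in 1 MI mouse and in none of the sham mice.

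Of 15 measured genes of amino acid synthesis and transport that are known ATF4 targets, 5 were called higher and 1 lower (median 0.43). Mthfd2, a mitochondrial enzyme of one-carbon metabolism, gave 6.50, 5.75, 6.09 and 6.04 in sham mice 1 to 4 and 7.72, 7.49, 8.08 and 8.13 in MI mice 1 to 4. It was 3.40-fold higher in MI mice (log2 difference 1.76, SE 0.25, limma adjusted p = 0.000201), and the groups did not overlap. Slc38a2, a carrier of neutral amino acids, was 2.29-fold higher (1.19, SE 0.24, limma adjusted p = 0.00559), and Slc3a2, the heavy chain of amino acid exchangers, was 1.92-fold higher (0.94, SE 0.26, limma adjusted p = 0.0409). The remaining called genes that rose were Psat1 of serine synthesis (1.05) and Aldh18a1 of proline synthesis (1.15), named after their values were seen because they complete the count. Cth, which makes cysteine from cystathionine, fell by 1.17 on the log2 scale (SE 0.29, limma adjusted p = 0.0216) and was not called under the spike-in affine fit (-0.25, limma adjusted p = 0.167) or normexp (limma adjusted p = 0.0685), nor without sham mouse 1 or 4 (limma adjusted p = 0.0519 and 0.0509). Slc3a2 was not called without any 1 of sham mice 2, 3 and 4 and MI mice 1, 3 and 4 (limma adjusted p from 0.0515 to 0.13), with the array row as a block (0.0503) or with probes of any brightness tested (0.139), its difference being lowest, at 0.73, without sham mouse 2. The differences of the dimmer genes shrank most under the affine fit, to 0.67 for Mthfd2, 0.73 for Ero1a, 0.53 for Pmaip1 and 0.48 for Ppp1r15b, and stayed called. Slc7a11 was well above background in 3 MI mice and in no sham mouse and was left out of the fit with Slc7a3, as was Pycr1, for which no probe was found by RefSeq accession.

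None of 12 aminoacyl-tRNA synthetase genes was called by limma (median 0.33), and 11 of them had a positive difference. So did 63.0% of all probes and 57.8% of 15156 genes, each read from its brightest probe. Of the 12 genes, 3 had an unadjusted p below 0.05 and SAM called 0. These enzymes charge transfer RNAs with amino acids and many are ATF4 targets.

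Of 24 ER chaperone and foldase genes, 1 was called higher and none lower, and their median log2 difference of -0.11 was below that of all probes. The called gene was Ero1a, the oxidase that regenerates disulfide isomerases, at 6.63, 6.61, 7.03 and 6.97 in sham mice 1 to 4 and 7.96, 8.25, 8.50 and 8.58 in MI mice 1 to 4. Its groups did not overlap (log2 difference 1.51, SE 0.23, limma adjusted p = 0.000563). None of 23 genes of ER translocation and ER-associated degradation was called by limma (median 0.069, range -0.36 to 0.48), 0 had an unadjusted p below 0.05 and SAM called 0. Herpud1, whose product works in the same complex, lay below that range.

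**Figure D5:**
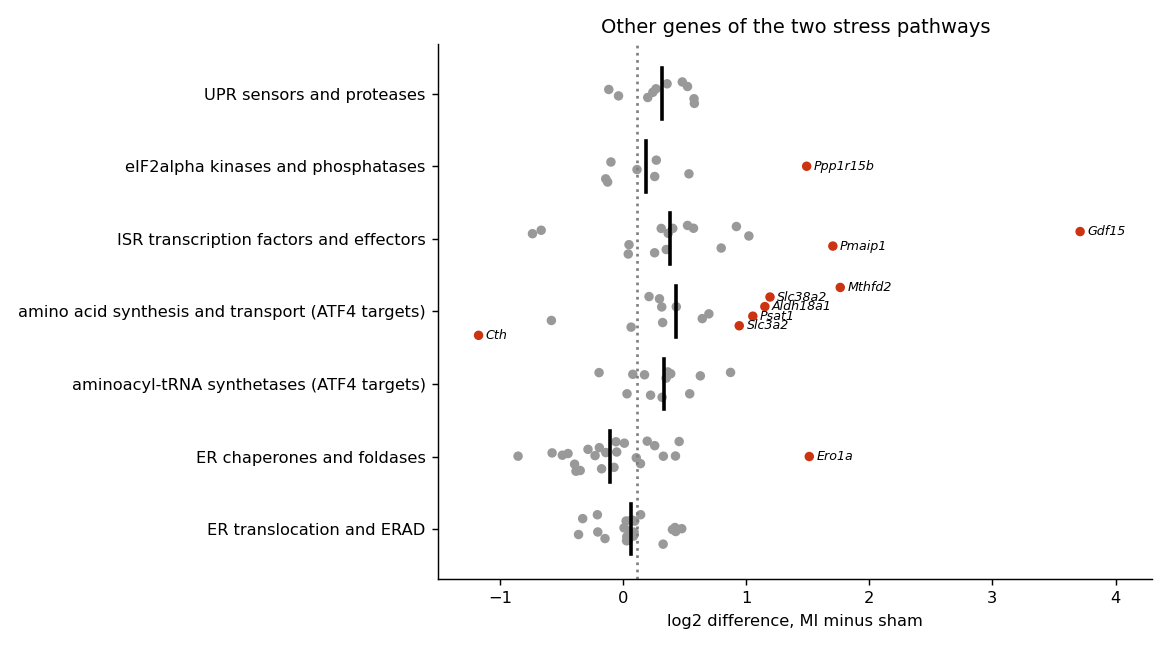
Log2 difference MI minus sham (x axis) of the 108 measured genes of 7 lists of the stress pathways (rows); red points are genes with a limma adjusted p below 0.05, grey points are genes above it, black bars are list medians and the dotted line is the median of all probes, 0.11. Of 15 genes of amino acid supply 5 were called higher and 1 lower. Called higher were also 2 of 16 transcription factors and effectors of the integrated stress response, 1 of 8 eIF2alpha genes and 1 of 24 chaperone genes. Among 15156 genes, each read from its brightest probe, 5.69% were called higher and 0.851% lower. The chaperone median is -0.11.

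Relative to the median of all probes, the list of amino acid genes lay at 0.32 and that of chaperones at -0.22 on the log2 scale. Over the 6 scalings these quantities ranged from 0.32 to 0.45 and from -0.22 to -0.10, so that each kept its sign, which is a description of the lists and not a test. The chaperone value depended on single mice: it was -0.12 without sham mouse 2, -0.17 without sham mouse 3, -0.37 without sham mouse 1 and -0.36 without MI mouse 4. The chaperone median before the overall median was subtracted turned to 0.0040 without sham mouse 3 and to 0.023 without MI mouse 2.

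Some markers of cell types differed between the groups, those of neutrophils most clearly, and the marker lists stand beside these values. Of 6 measured neutrophil markers 5 were called higher in MI mice, the exception being Csf3r (log2 difference 0.090). The log2 of the summed signals of the 6 markers was 15.92 to 16.26 in sham mice and 17.64 to 18.26 in MI mice. Sums of this kind are set mostly by the brightest markers of a list. Among T cell markers, for example, Cd3e had a mean log2 signal of 10.48 in sham mice, against 4.69 to 5.78 for the others. Of 7 monocyte and macrophage markers 2 were called higher (summed 14.94 to 15.86 in sham and 15.20 to 15.78 in MI mice), and of 7 B and plasma cell markers also 2 (8.21 to 8.67 and 8.86 to 9.51). Of 4 T cell markers 1 was called higher (10.41 to 10.73 and 10.25 to 10.78), as was 1 of 4 smooth muscle markers (13.99 to 14.40 and 14.58 to 15.42). The 10 cardiomyocyte markers were well above background and none was called by limma (21.20 to 21.67 and 21.07 to 21.64), and none of 8 fibroblast (16.47 to 17.14 and 15.53 to 16.82) or 7 endothelial markers (14.85 to 15.07 and 14.61 to 15.24) was called. At an unadjusted p below 0.05 there were 1, 2 and 1 of these, and SAM called 0, 1 and 0. For Ly6g, Cd68 and Ly6c2 no probe was found by RefSeq accession, and Cd3g was well above background on no array. The study reports Cd68 as higher in MI mice on these arrays, so that the macrophage count leaves out a marker that was measured. The part of these cells in the values of Asns, Trib3, Herpud1 and the wider lists was not tested.

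As checks, Nppb, the B-type natriuretic peptide gene induced in strained ventricles, was 3.20-fold higher in MI mice (log2 difference 1.68, SE 0.26, limma adjusted p = 0.000655), the leukocyte gene Ptprc 2.25-fold higher (1.17, SE 0.24, limma adjusted p = 0.00549), and Gapdh gave 0.15 (SE 0.23, limma adjusted p = 0.816). All arrays shared 1 slide, on which both rows held 2 MI and 2 sham mice, and 58.6% to 66.4% of their spots were well above background. The sign of the difference was the same in both rows for all 10 genes, and with 4 arrays per group the precision is limited by their number.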

How the data were processed

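Gene expression was measured in ventricles of 4 MI and 4 sham mice, grouped by the sample labels. The authors scanned the slide with Feature Extraction 11.0.1.1, which per the file headers subtracted background and spatial trends from each array's intensity values without scaling between arrays. The authors also deposited log2 values, in which limma and vsn were applied to detected spots with normalization on spike-in probes; these served as an alternative only.

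Here, log2 processed signals were shifted per array by the mean over 7 spike-in probes (234 spots) detected in every sample. A shift was used because an affine spike-in fit had additive constants of 166 to 256, against 3.16 to 19.6 in the values of the authors, and holds back the folds of dim probes. Outlier spots and control probes were left out, spots of a probe were averaged, and 34038 of 55681 probes well above background on 4 or more arrays were kept. Groups were compared with limma 3.58.1 (lmFit, eBayes; R 4.3.3) without covariates and Benjamini-Hochberg adjustment over all kept probes; single genes also with an exact permutation test. Intervals are 95% intervals of the limma fit. Code was tested on simulated data. Probes were named through their RefSeq accession and the RefSeq gene table of GRCm38.p6; promoters came from the same build, and motifs were searched with Python 3.11.15.

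The 10 genes, the pathway and marker lists and the tests were chosen with earlier results of these data known. Named beside the 10 genes were, per list, the 2 called genes with the largest and the 2 with the smallest difference, the 2 genes most like each member (1 of those of Chac1 is not reported here), and 3 check genes. Alternatives were 75th percentile and quantile scaling, the affine fit, the authors' values, normexp (offset 50) on median spot intensities, other detection filters, significance analysis of microarrays, blocks for replicate number and array row, and leaving out each mouse. A further setting for the 10 genes took the mean of all kept probes of a gene, which changes only the difference of Atf4. Whether the replicate numbers pair the mice was not settled, and the main fit did not use them.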

Additional observations from a re-analysis of the deposited data

Results flagged for a closer look

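Of 36 groups of 4 mice examined for the named genes, 5 held a mouse far from the other 3, 3 of them among the 20 groups of the 10 stress genes; chance alone flags about 1 group in 20. Herpud1 had a log2 signal of 15.30 in sham mouse 3, against 14.84 to 14.86 in the other sham mice. Trib3 had 10.30 in MI mouse 3, against 9.60 to 9.71 in the other MI mice. Without that mouse the difference of Herpud1 was -1.08 (limma adjusted p = 0.0606) and that of Trib3 was 0.89 (limma adjusted p = 0.0586), and neither was called. Manf had 12.60 in MI mouse 4, against 11.32 to 11.48 in the other MI mice, the mouse in which the ER chaperones were also highest. Pmaip1 had 6.84 in MI mouse 2, against 7.49 to 7.58, and Slc3a2 had 12.19 in sham mouse 2, against 12.96 to 13.11.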

How the results depend on the processing

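Over 20 other settings, Asns stayed called and Chac1, Xbp1, Hsp90b1 and Manf stayed uncalled, each with its sign. For every gene but Atf4, 1 of these settings, the mean over the probes of a gene, gives the main difference again. Hspa5 ranged from -0.38 to 0.061 over the fits that left out 1 mouse, turning sign without sham mouse 3, and had the same sign otherwise. The number of the 10 genes called higher was 2 here, 4 under quantile normalization, normexp, significance analysis of microarrays and the replicate block, and 1 without a filter on detection. Under normexp each of the 10 genes had the same SE, 0.21, so that calls of that fit do not take up a gene's own spread between mice. The number called lower was 1, and 0 without a filter. Without a filter, where 55681 probes were tested, 1 gene passed with over 2-fold in place of 3. Under 75th percentile scaling, the affine fit, quantile normalization and normexp, 2 genes passed with over 2-fold. The difference of Trib3 was 0.93, 0.79, 0.93 and 0.97 under these 4 scalings. Leaving out single mice gave 1 to 2 genes higher (1 without MI mouse 3), 0 to 1 lower (0 without sham mouse 3) and 2 to 3 over 2-fold. In the wider lists 9 genes were higher and 1 lower here, 17 and 6 with 75th percentile scaling, 20 and 5 with quantile normalization, 14 and 3 with normexp, and 18 and 4 with the replicate block. None was lower under the affine fit or without a filter. Without single mice 7 to 11 were higher and 0 to 1 lower (0 without sham mouse 1 or 4). Over all probes 1858 were called, 5947 under 75th percentile scaling, 6173 under quantile normalization, 3146 by significance analysis of microarrays, 4315 with the replicate block, 1008 without a filter and 1343 to 2253 without single mice. Over 2-fold there were 1520, against 333 under the affine fit, 1013 in the authors' values, 610 under normexp, 992 without a filter and 1238 to 1853 without single mice. The share of calls that were higher was 86.7% here, 51.4% under 75th percentile scaling and 50.4% under quantile normalization; the cause of these changes was not tested.

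Replicate numbers 1 to 4 are shared by the groups. Deviations of same-numbered mice correlated at 0.20, 0.042, -0.073 and 0.0071, and no mouse correlated best with its own number. A correlation over probes does not register a shift shared by a whole array. The median deviation of all kept probes from their means was 0.11, -0.37, 0.13 and -0.11 in sham mice 1 to 4. In MI mice 1 to 4 it was 0.24, -0.35, 0.33 and 0.023, so that whether the numbers pair the mice was not settled. With the replicate block Atf4 (adjusted p = 0.0355) and Ddit3 (adjusted p = 0.0355) were called by limma.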
